A study of Oryctolagus cuniculus with 18 samples.

Results

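The genes described here are 250 of the 29587 Ensembl rabbit genes counted in this series. They were more abundant in RPE-choroid than in retina of non-operated eyes, by at least 1 log2 unit, and they rose in retina after vitreous substitution. The members were chosen by measured values, as CPM, the count of a gene scaled to the library's total count on genes. Each had a log2 ratio of retina to RPE-choroid of -1 or less in non-operated eyes, with 0.5 CPM added to both means, and a mean of at least 1 CPM in retina at 1 month. In each, the lowest of the 6 operated retina samples lay above the highest non-operated one, while the lowest of the 6 operated RPE-choroid samples did not lie above the highest non-operated RPE-choroid sample. Of 3087 RPE-choroid-preferring genes, 2293 also met the minimum level, 1145 also the order of retina samples and 1099 also the order of RPE-choroid samples. The 250 with the largest rise were kept. The rise is the log2 ratio of the mean of the 6 operated retina samples to the mean of the 3 non-operated ones, again with 0.5 CPM added.

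The retina is the light-sensing neural sheet of photoreceptors, interneurons, ganglion cells and glia. The retinal pigment epithelium (RPE) lies against the photoreceptors, recycles visual pigment and takes up shed outer segments, and the choroid beneath it is a vascular, pigmented tissue with endothelium, fibroblasts, melanocytes and immune cells. Genes that prefer RPE-choroid over retina can therefore belong to any of these cell types.

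Retina and RPE-choroid came from male rabbits aged 4 to 6 months, with 3 samples per tissue in each of 3 groups. The groups were non-operated eyes, and eyes whose vitreous had been replaced by the thermogelling polymer poly(CEP) and that were collected at 1 month or 2 months after surgery. The operated eyes had no induced proliferative vitreoretinopathy, and eyes with vitrectomy but no polymer were not analysed here, so surgery and polymer cannot be told apart. The paper lists the 2-month eyes of this kind as contralateral eyes of rabbits whose other eye had the disease model. It lists the 1-month eyes under rabbits without a model eye. Time after surgery and the disease model in the other eye therefore cannot be told apart. The sample labels call the second tissue retinal pigment epithelium, and the paper calls it RPE-choroid. It is a bulk tissue that was peeled from the sclera after the retina had been pulled away, and the samples are described as biological replicates. Bulk RNA cannot tell more cells of a type from more RNA per cell. None of the identifiers could be paired with a gene name here (0 of 29587), so no cell type markers could be checked, no list of pathway genes was used, and no sequence is shown.

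A pair of library features touches the results. The RPE-choroid libraries carried differing amounts of retina RNA, estimated from 212 retina genes as the median ratio of their level to that in retina of the same group. The genes of this list were at 100 CPM or more in non-operated retina, with a log2 excess of at least 5 over the lowest RPE-choroid library. Choosing genes by this excess favours low estimates in the cleanest libraries, so the lowest estimates are in part set by the choice. The estimate was 21.5%, 0.872% and 59.5% in non-operated replicates 1, 2 and 3. It was 76.5%, 85.3% and 40.1% at 1 month, and 17.5%, 18.2% and 0.823% at 2 months. The 1-month RPE-choroid libraries thus held more retina RNA than those at 2 months, without overlap. Among retina libraries, reads aligned to several places made up 11.7% and 11.1% in 2-month replicates 1 and 2 and from 8.08% to 9.38% in the others. Counts on genes ranged from 22335005 to 33505730 over the 18 libraries.

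In non-operated retina the members were scarce but detected. Their median level was 1.03 CPM, from 0.0112 to 76.0 CPM, and 100 of the 250 were under 1 CPM in all 3 samples. No member had 0 counts in all 3 of these samples, while 9 had 0 counts in at least 1 of them, and 4 had fewer than 4 counts over the 3 samples together. In RPE-choroid of non-operated eyes their median was 19.5 CPM, from 0.728 to 2039 CPM. The log2 ratio of retina to RPE-choroid, which the selection used, had a median of -3.15 and went down to -10.37.

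In retina at 1 month the median member was at 10.9 CPM and at 2 months at 11.9 CPM. Over the 6 operated samples the ratio of mean levels to non-operated retina had a median of 9.52-fold, from 3.71-fold to 859-fold. The rise on the log2 scale had a median of 2.51 and ran from 1.88 to 7.96. The last members included, at ranks 249 and 250, both had a rise of 1.88, and the first genes left out, at ranks 251 and 252, had 1.88 and 1.87, so the list ends within a continuous range of values. By edgeR's quasi-likelihood test, with p adjusted by Benjamini-Hochberg over all 15878 genes tested, 246 members were called higher at 1 month, where 10.9% of all genes were, and 241 at 2 months, where 8.21% were. The selection used these contrasts, and the order of retina samples it asked for was met by 19.2% of all genes tested, so both counts are a description. All 250 members passed the low-count filter.

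Summed over members, the level in non-operated retina was 898, 960 and 852 CPM in replicates 1, 2 and 3. At 1 month it was 8640, 7504 and 9535 CPM. At 2 months it was 11943, 13029 and 4929 CPM. The operated sums ranged from 5.46 to 14.4 times the non-operated mean. Replicate 3 at 2 months was the lowest and replicates 1 and 2 at 2 months were the highest, so the 2-month samples lay on both sides of all 1-month samples. The sum was not spread evenly over genes, since the 10 most abundant members in operated retina made up 44.2% of it.

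**Figure D1:**
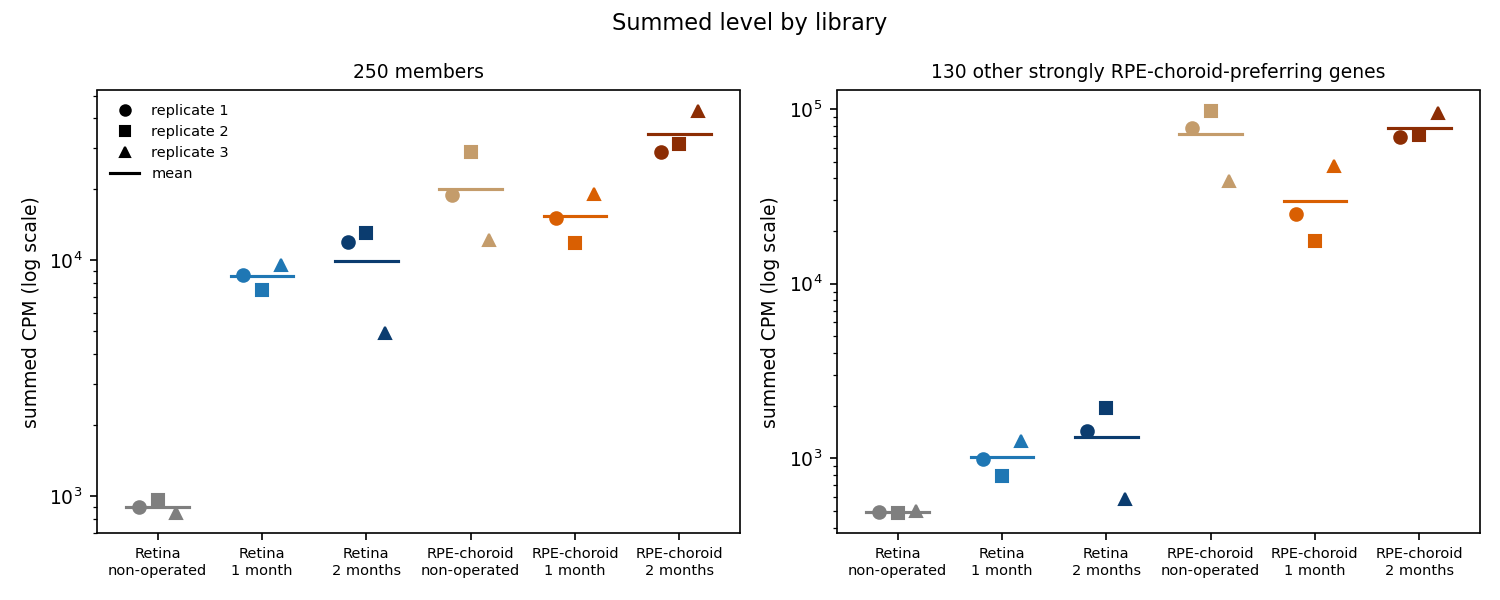
Summed CPM on a log scale of the 250 members (left) and of 130 other strongly RPE-choroid-preferring genes (right) in each of 18 libraries, by tissue and group. Symbols are replicates and lines are group means. Operated retina samples lie at 4929 to 13029 CPM for members against 852 to 960 CPM in non-operated retina, and at 582 to 1944 CPM against 487 to 495 CPM for the other genes.

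Whether the rise scaled with abundance in RPE-choroid was described by the increment, the mean CPM of the 6 operated retina samples minus that of the 3 non-operated ones. A carry-over of RPE-choroid RNA in one proportion would give each gene the same percentage of its RPE-choroid level minus its retina level. That is close to one percentage of the RPE-choroid level where the retina level is far lower, and less where the tissues are closer. Over the 250 members the increment followed the RPE-choroid level, with a Spearman rho of 0.72. The slope of log2 increment on log2 RPE-choroid level was 0.58, below the value of 1 that one proportion would give where retina levels are negligible. Members were chosen for a large rise, which bears on this slope. The same over the 2937 RPE-choroid-preferring genes with at least 1 CPM in RPE-choroid gave a rho of 0.50, and a slope of 0.81 over the 2585 of them (88.0%) with a positive increment. The slope was 0.84 over the 2337 non-members with a positive increment and 1.02 over the 144 such genes of the comparison list of strongly RPE-choroid-preferring genes described next, whose rho was 0.54. The rise itself, as a log2 ratio, had a rho with the RPE-choroid level of 0.31 over members, 0.061 over the 2937 genes and -0.27 over all 1099 genes passing the rule, so its direction depended on the genes taken. These are correlations across genes that share the same libraries, and the members were chosen on both terms of the increment, so no test is given.

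As a percentage of the RPE-choroid level, the members' increments were large and unequal. The median was 62.9%, the quartiles were 35.8% and 115%, and the range was 0.884% to 943%. The median was 22.7% over all 1099 genes that passed the rule, and it was 35.3% over members against the 2-month RPE-choroid level. The 90th percentile, 163%, was 12.3 times the 10th, 13.2%. Among the 2689 RPE-choroid-preferring genes that were not members the median was 7.05%, with quartiles of 1.08% and 18.2%. The gap in medians follows from the ranking by rise and is a description.

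A comparison list of strongly RPE-choroid-preferring genes, chosen after the data had been seen, gives the increment of genes with little expression in retina. It held 150 genes with a log2 ratio of -5 or less and at least 100 CPM in RPE-choroid, whatever they did in operated retina. Their median increment was 0.673% of the RPE-choroid level, with a 90th percentile of 4.63% and a highest value of 41.5%, and 144 of them had a positive increment. Of these genes 20 were members, with a median of 4.59%, from 0.884% to 41.5%. The 130 that were not had a median of 0.533%, a 90th percentile of 2.82% and a highest value of 17.0%. The difference between members and the 130 follows from the selection, which took the genes with the largest rise out of the comparison list. It is therefore a description, and how much of the members' increment came from RPE-choroid RNA was not tested.

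**Figure D2:**
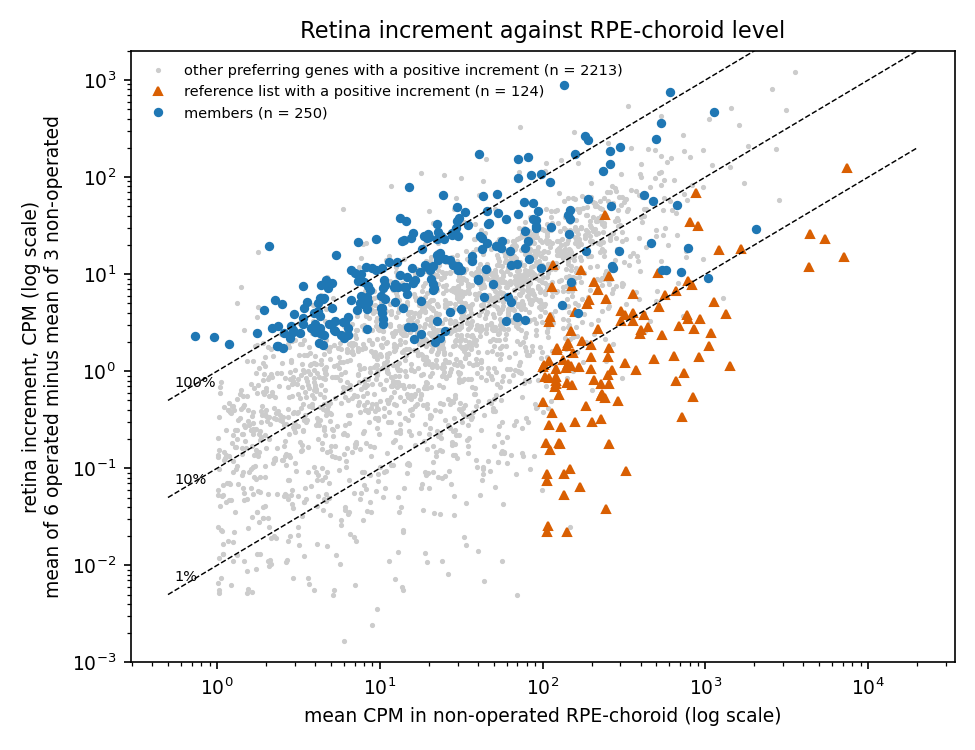
Retina increment (mean CPM of 6 operated minus mean of 3 non-operated samples) against mean CPM in non-operated RPE-choroid, both on log scales, for members, for the 130-gene comparison list and for the other RPE-choroid-preferring genes, where positive. Dashed lines mark increments of 1%, 10% and 100% of the RPE-choroid level. Members scatter around a median of 62.9% and the comparison list around 0.533%.

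The percentage fell with abundance and with tissue preference. For the 82 members under 10 CPM in RPE-choroid the median increment was 91.5% of that level, for the 131 from 10 to 100 CPM it was 56.1%, and for the 37 at 100 CPM or more it was 19.1%. Among non-members the same bands had medians of 8.11%, 7.41% and 4.79%. By tissue preference, the 31 members with a log2 ratio above -2 had a median of 141%, the 140 from -2 to -4 had 71.8%, and the 79 at -4 or less had 21.8%. By level in non-operated retina the bands differed less, at 63.2% for the 75 members under 0.5 CPM, 56.1% for the 91 from 0.5 to 2 CPM and 70.8% for the 84 at 2 CPM or more. A minimum rise asks for a larger percentage where the RPE-choroid level is low, so the selection itself favours such a fall.

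For 85 members the mean of operated retina exceeded the mean of non-operated RPE-choroid. That is 34% of members, against 10.9% of the 1099 genes passing the rule and 5.58% of the 2937 RPE-choroid-preferring genes, in an order that the ranking by rise favours. This was so for 29 of the 31 members with the weakest tissue preference, for 50 of the 140 in the middle band and for 6 of the 79 with the strongest. All 6 operated retina samples lay above all 3 non-operated RPE-choroid samples in 9 members, and among all genes tested in retina this order held for 26%. In 69 members all 6 lay below all 3, where 15.9% of all genes did. Members were chosen for a higher level in these RPE-choroid samples than in non-operated retina, so both counts follow in part from the selection. Once each RPE-choroid library's estimated retina share was removed, a step added after the data had been seen, the count of 85 became 47 and the median increment 46.1%. Against the 2-month RPE-choroid level the count was 25, and against the highest of the 9 RPE-choroid samples it was 7. No member had all 6 operated retina samples above all 9 RPE-choroid samples.

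The order of operated retina libraries was shared between members and the comparison list. The summed level of the 130 genes was 987, 786 and 1256 CPM at 1 month and 1424, 1944 and 582 CPM at 2 months, against 488, 487 and 495 CPM in non-operated retina. The 6 operated libraries thus had the same order in both sums. Library by library, the median increment of members was 57.9%, 50.7% and 58.5% at 1 month and 76.4%, 85.6% and 29.2% at 2 months. For the 130 genes it was 0.480%, 0.198% and 0.459%, then 0.546%, 1.17% and 0.0816%. The members' summed increment per unit of the comparison list's increment was therefore not constant, from 8.34 in 2-month replicate 2 to 43.9 in 2-month replicate 3. Over the 6 libraries, the correlation of a member's log2 level with the log2 sum of the 130 genes had a median of 0.74. It was above 0.5 in 206 members and below 0 in 4. Among the 2664 RPE-choroid-preferring non-members with such a value the median was 0.62, with 1606 above 0.5 and 421 below 0. Members also had to pass a minimum level in 1-month retina, and non-members did not, which bears on this comparison. These are descriptions over 6 libraries of 2 time points, and the part of RNA from RPE-choroid in them was not tested.

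Members varied between replicates more than most retina genes did, most of all at 2 months. Their median coefficient of variation was 29.3% in non-operated retina, 22.7% at 1 month and 43.5% at 2 months, against 11.7%, 12.9% and 15.1% over the 14023 genes with a mean of at least 1 CPM in retina. The comparison is not matched for level, and 100 members were under 1 CPM in all 3 non-operated retina samples, where counting error adds to the variation. Of the 250, 127 were highest in 2-month replicate 2, 44 in 2-month replicate 1 and 61 in 1-month replicate 3. 2-month replicate 3 was the lowest operated library for 173 members, and the lowest of the 3 samples at 2 months for 238. The first component of the members' log2 levels over the 6 libraries held 50.2% of the variance and set 2-month replicate 3 apart from replicates 1 and 2 at that time. The second held 36.1% and set 1-month replicate 3 apart.

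The members fell into 2 main patterns by the library in which they were highest. The 171 members that peaked in 2-month replicate 1 or 2 had a median of 15.9 CPM in RPE-choroid and a median increment of 71.4%. The 61 that peaked in 1-month replicate 3 had a median of 37.1 CPM in RPE-choroid and a median increment of 51.2%. The other 18 peaked elsewhere. Both 2-month libraries also had the highest share of reads aligned to several places among retina libraries, 11.7% and 11.1%, and its part in the result was not tested. 1-month replicate 3, at 8.45%, did not stand apart in this share.

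**Figure D3:**
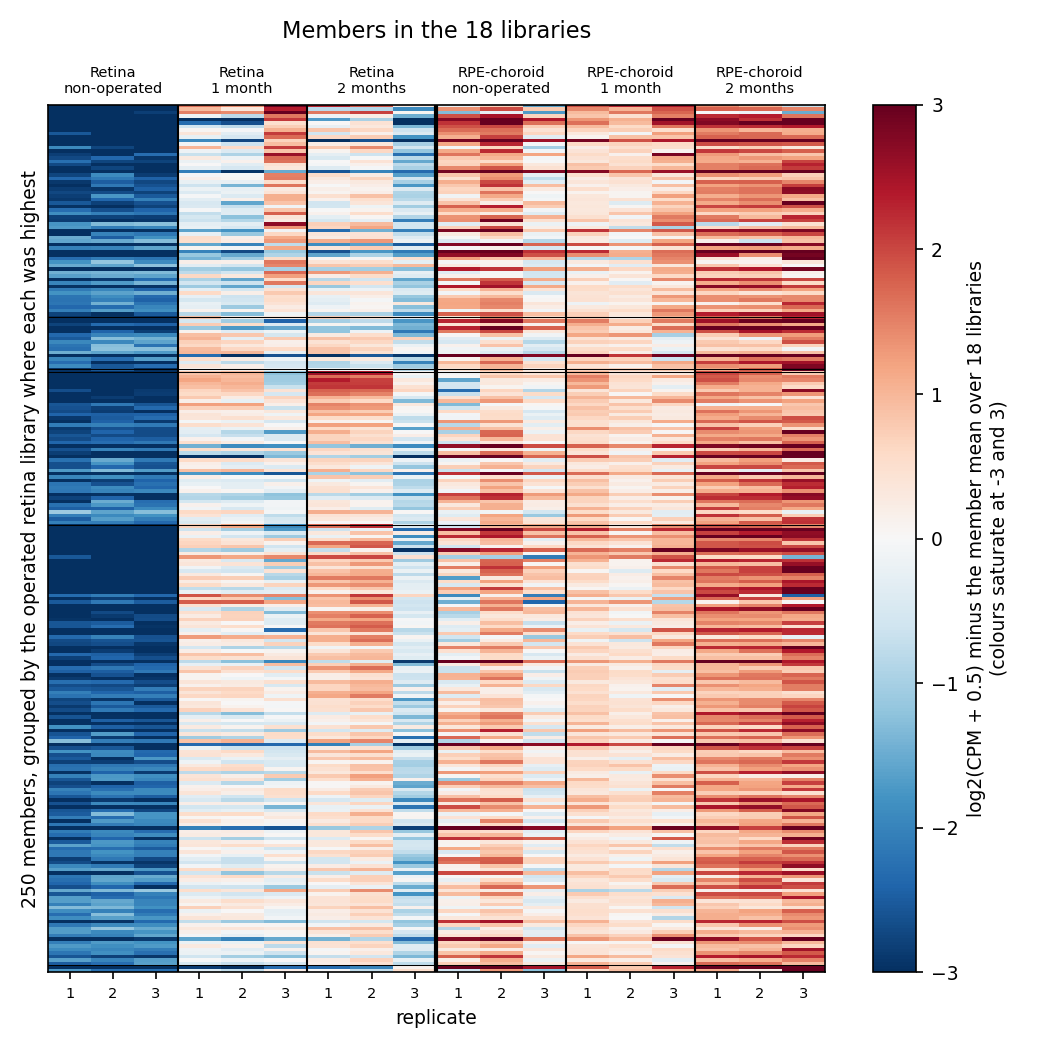
log2(CPM + 0.5) of the 250 members in 18 libraries, centred on each member's mean, with colours that saturate at -3 and 3. Rows are grouped by the operated retina library where the member was highest, and the topmost block holds the 61 members that peaked in 1-month replicate 3. Non-operated retina is the lowest group, and 2-month replicate 3 is paler than replicates 1 and 2.

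The member with the largest rise was ENSOCUG00000029486. In non-operated retina it was at 0.337, 0 and 0.270 CPM, 19 counts in all. At 1 month it was at 140, 117 and 358 CPM in retina, and at 2 months at 213, 165 and 50.8 CPM, so all 6 operated samples lay far above the non-operated ones and the 2 time points overlapped. RPE-choroid was at 38.2, 70.1 and 13.9 CPM in non-operated eyes, at 170, 211 and 239 CPM at 1 month and at 119, 88.2 and 26.9 CPM at 2 months. The 1-month RPE-choroid samples were above all others of that tissue. These libraries held an estimated 76.5%, 85.3% and 40.1% retina RNA, and the gene was abundant in 1-month retina. How much of its 1-month RPE-choroid level came from retina RNA was not tested. The mean of operated retina was 427% of that of non-operated RPE-choroid. From 1 to 2 months its log2 fold change was -0.53 (SE 0.58) in retina and -1.37 (SE 0.64) in RPE-choroid, with an edgeR adjusted p of 0.182 in the latter, and neither passed the threshold of 0.05.

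ENSOCUG00000013533 was the member most abundant in RPE-choroid and also the one with the largest fitted decrease there from non-operated to 1 month, among the 204 with at least 5 CPM. It was at 2100, 3489 and 529 CPM in non-operated RPE-choroid, at 331, 162 and 464 CPM at 1 month and at 1347, 1696 and 9063 CPM at 2 months. The estimated retina share of these libraries was 21.5%, 0.872% and 59.5% in non-operated eyes and 76.5%, 85.3% and 40.1% at 1 month. In both groups the gene was lowest where this share was highest, and its part in the decrease was not tested. In non-operated retina the gene was at 2.58, 0.337 and 0.202 CPM. In retina at 1 month it was at 12.4, 6.75 and 18.8 CPM, and at 2 months at 18.6, 23.3 and 102 CPM. Against non-operated retina the edgeR adjusted p was 0.0646 at 1 month, which did not pass the threshold, and 0.0249 at 2 months. The selection used these contrasts. The increment was 1.44% of the RPE-choroid level, within the range of the 130 comparison genes. It was 1 of 2 members that were highest in 2-month replicate 3 of retina, and the RPE-choroid sample of that number was also the highest of its tissue.

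ENSOCUG00000024096 had the largest fitted decrease in retina from 1 to 2 months among the 187 members with at least 5 CPM in operated retina. It was at 0.981, 0.636 and 0.371 CPM in non-operated retina. At 1 month it was at 50.05, 32.8 and 133 CPM, and at 2 months at 14.7, 13.9 and 6.57 CPM, without overlap between the time points. The log2 fold change was -2.61 (SE 0.52), with an edgeR adjusted p of 0.434 over all genes, which did not pass the threshold. In RPE-choroid it was at 66.4, 100 and 44.5 CPM in non-operated eyes, at 70.6, 52.8 and 98.3 CPM at 1 month and at 89.2, 85.3 and 71.6 CPM at 2 months. These 3 groups overlapped. The difference between the tissues in the change from 1 to 2 months was -2.87 on the log2 scale (SE 0.69), with an edgeR adjusted p of 0.0758.

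**Figure D4:**
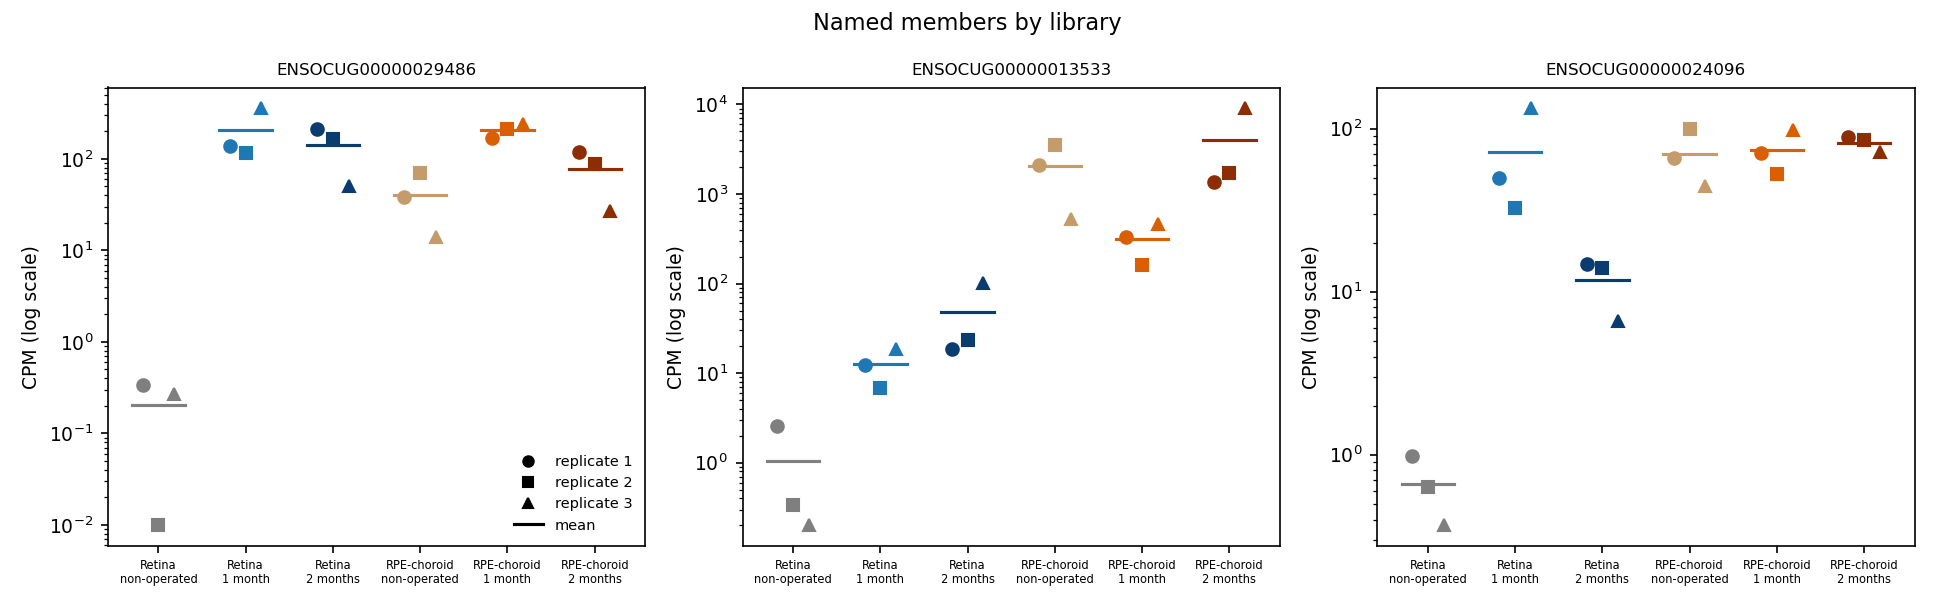
CPM on a log scale of the 3 named members in each library, by tissue and group. Symbols are replicates, lines are group means, and the one value of 0 is drawn at 0.01. ENSOCUG00000029486 reaches 358 CPM in operated retina, ENSOCUG00000013533 stays at or below 102 CPM there, and ENSOCUG00000024096 is lower at 2 months than at 1 month in retina.

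The change from 1 to 2 months was not used in the selection and was tested. In retina the members had a median log2 fold change of 0.091, with quartiles of -0.18 and 0.35, against 0.0063 over all genes tested. By edgeR's adjusted p, 0 members were called higher, where 0.0063% of all genes were, and 0 lower, where 0% were. At an unadjusted p under 0.05, 12 members (4.80%) were higher and 6 (2.40%) lower, where 1.86% and 2.17% of all genes were. DESeq2 called 2 members higher, where 0.207% of all genes were, and 1 lower, where 0.173% were. All 2-month samples lay above all 1-month samples in 8 members and below them in 2, where 4.25% and 3.62% of all genes did. Without 2-month replicate 3, edgeR called 4 members higher, where 0.21% of all genes were, and the median was 0.36. At an unadjusted p under 0.05, 56 were then higher, where 3.49% of all genes and 6.64% of the non-member RPE-choroid-preferring genes were. Both of the other 2-month samples lay above all 3 samples at 1 month in 119 members, where they did in 14.8% of all genes.

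In RPE-choroid the members were higher at 2 months than at 1 month, but so were RPE-choroid-preferring genes as a whole. The members' median log2 fold change was 1.10, with quartiles of 0.67 and 1.49, and 234 of 250 had a positive value. The median over the 2686 non-member RPE-choroid-preferring genes tested was 1.11, and over all 16322 genes tested it was 0.011. By edgeR's adjusted p, 0 members were called in either direction, as was 0% of all genes, with a lowest member value of 0.0503. At an unadjusted p under 0.05, 153 members (61.2%) were higher, where 18.9% of all genes and 65.2% of the non-member RPE-choroid-preferring genes were, and 2 were lower, where 11.5% of all genes were. DESeq2 called 108 members (43.2%) higher, where 11.5% of all genes and 49.8% of the non-member RPE-choroid-preferring genes were. It called 2 lower, where 7.18% of all genes were.

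This call rested on the fit and on single libraries. With only the 2 groups compared, edgeR called 113 members higher, where 12.3% of all genes and 51.4% of the non-member RPE-choroid-preferring genes were. Without non-operated replicate 2 it called 92, where 8.3% and 37.8% were, and without non-operated replicate 3 it called 98, where 11.5% and 49.6% were. All 2-month samples lay above all 1-month samples in 173 members, where 20.2% of all genes did, and below them in 3, where 26.4% did. The estimated retina share, 40.1% to 85.3% at 1 month and 0.823% to 18.2% at 2 months, moved with this difference. So did the share of multiply aligned reads, which was 8.47% to 9.62% at 1 month and 9.96% to 13.7% at 2 months, and its part was not tested. With the retina share removed, the median log2 ratio of 2 months to 1 month was 0.47 in members and -0.044 in non-members, and 176 members were higher at 2 months. The removal divides by what remains of each library, so the 1-month values are the least precise.

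**Figure D5:**
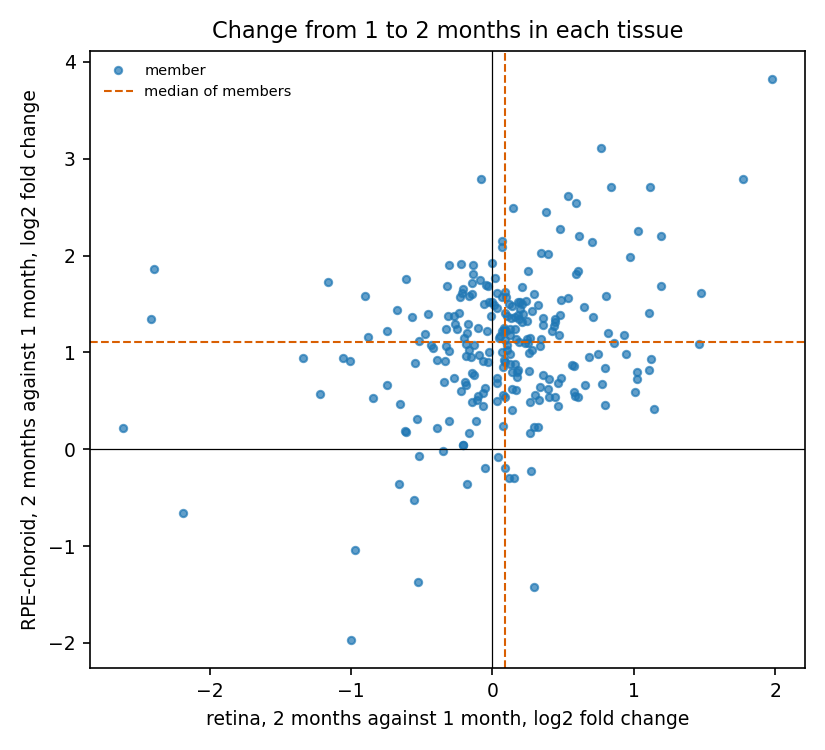
log2 fold change from 1 to 2 months in retina (horizontal) and RPE-choroid (vertical) for the 250 members, from edgeR. Dashed lines are the members' medians, 0.091 in retina and 1.10 in RPE-choroid. Points lie on both sides of 0 in retina and mostly above 0 in RPE-choroid.

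The change from 1 to 2 months was lower in retina than in RPE-choroid by a median of 1.04 on the log2 scale over members, and only 26 of 250 had a positive difference. The median over the 2685 non-member RPE-choroid-preferring genes was -1.10. By edgeR's adjusted p for the difference itself, 0 members were called higher, where 0.00594% of all 16846 genes were, and 0 lower, where 0.137% were. At an unadjusted p under 0.05, 89 members (35.6%) were lower, where 13% of all genes and 49.4% of non-members were, and 1 was higher, where 8.58% of all genes were. DESeq2 called 34 members (13.6%) lower, where 5.18% of all genes and 24.1% of non-members were. It called 0 higher, where 1.51% of all genes were. With the replicate number as a block, edgeR called 1 member lower, where 0.0772% of all genes were. With only the 12 operated samples it called 23, where 5.09% of all genes and 25.7% of the non-members were.

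Against non-operated RPE-choroid, where the selection had barred members in which all 6 operated samples were higher, edgeR called 0 members at either time. Of all genes it called 0.0123% higher and 0% lower at 1 month, and 0% in either direction at 2 months. DESeq2 called 4 members higher and 14 lower at 1 month, where 3.16% and 5.45% of all genes were, and 25 higher and 0 lower at 2 months, where 1.42% and 0.603% were. At 1 month, 29 members (11.6%) had a decrease with an unadjusted edgeR p under 0.05. Among all genes this share was 13.3%, and among the non-member RPE-choroid-preferring genes it was 46.4%. An increase passed this limit in 5 members, against 7.82% and 0.819%. For the 2-month samples an increase passed it in 115 members (46%), against 6.84% and 12.7%. A decrease passed it in 0 members, against 3.85% and 0.819%. Members were selected on the order of these samples and on the non-operated RPE-choroid level, so all counts against non-operated RPE-choroid are a description. The members' median log2 fold change was -0.21 at 1 month and 0.82 at 2 months. Among non-members it was -0.84 and 0.23. With the estimated retina share removed, the median log2 ratio of members to non-operated RPE-choroid was 0.023 at 1 month and 0.47 at 2 months, and that of non-members 0.087 and 0.069. All 2-month samples lay above all non-operated ones in 140 members, where 12.4% of all genes did. In 203 of 250 members the highest of the 9 RPE-choroid samples was a 2-month one. For 118 it was 2-month replicate 3, the library with the lowest estimated retina share. Shares over other genes are not given here for the 203 and 118, so both are a description. By group means, 241 members and 1973 of the 2689 non-members were higher at 2 months than in non-operated RPE-choroid.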

How the data were processed

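Gene counts of 18 rabbit libraries were used. The deposited values are raw counts per Ensembl gene, which the authors made with HTSeq after trimming (Trim Galore) and HISAT2 alignment against OryCun2.0. Versions and the strand setting are not given in the sources used here. The 5 HTSeq summary rows, which held 46.6% to 52.9% of reads, were left out.

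Members were selected on CPM. The 9 samples of each tissue, or all 18 for the difference between tissues, were fitted with edgeR 4.0.16 (TMM scaling; low counts removed by filterByExpr with a count of 10 per sample and 15 in total). The two-sided quasi-likelihood test used robust dispersions, and a gene was called at a Benjamini-Hochberg adjusted p under 0.05. The test was checked on simulated data. DESeq2 1.42.0, other normalisations, no filter, only the groups compared, a replicate block and leaving out each replicate were alternatives. Members and lists were chosen with earlier results of these data known. Lists of NRF2 targets and cell type markers were not used, because 0 of 29587 identifiers matched the gene table of mOryCun1.1. Named members were the first by rise, the most abundant in RPE-choroid, and those with the largest decreases from 1 to 2 months in retina and from non-operated to 1 month in RPE-choroid; one gene took 2 of these places.

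Replicate numbers come from the labels, which do not say that they mark an animal. Deviations from the group means of same-numbered retina and RPE-choroid samples correlated at 0.11 to 0.50 in all 9 pairs, and those of 1-month and 2-month samples at 0.22 to 0.44 in RPE-choroid and -0.17 to -0.01 in retina. Those of non-operated RPE-choroid with the operated RPE-choroid groups ran from -0.58 to 0.24. The paper lists the 1-month and 2-month polymer-filled eyes without induced disease under different rabbits. The numbers therefore cannot pair animals between these times, and a shared eye between tissues is not stated. The main fits used no pairing, and the numbers entered only as a block in an alternative fit. Libraries held 22335005 or more counts on genes. Counting error is small for abundant members but not for the scarce ones in non-operated retina, where 4 had under 4 counts over 3 samples, so folds against that group are imprecise for them.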

Additional observations from a re-analysis of the deposited data

How the results depend on the processing

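With 3 samples a group, calls in RPE-choroid depended on the fit. From 1 to 2 months in retina, DESeq2 called 2 members higher and 1 lower, and leaving out each replicate gave 0 to 4 higher, with 4 only without 2-month replicate 3. In RPE-choroid, DESeq2 called 108 higher and 2 lower, no filter 26 higher, and only the groups compared 113 higher and 1 lower. Leaving out each replicate gave 0 to 98 higher and 0 to 1 lower. The tissue difference gave 34 lower by DESeq2, 23 with only the operated samples and 1 with the replicate block, which changed no other call count beyond 1.5 times. Against non-operated RPE-choroid, DESeq2 called 4 higher and 14 lower at 1 month and 25 higher at 2 months. Leaving out each replicate gave 0 to 1 higher and 0 to 32 lower at 1 month, with 32 only without non-operated replicate 3. The cause was not tested. The selection used the non-operated RPE-choroid samples, so all counts against them are a description. Shares over all genes are not given here for the 26 or the 32, so both describe the fits and not the members. By DESeq2 25.2% of the non-member RPE-choroid-preferring genes were lower at 1 month. A log2 ratio of -2 or less left 683 genes in place of 1099, of which the top 250 shared 219 with the members. Without non-operated RPE-choroid replicate 2, 190 were shared. The median increment was 35.3% against the 2-month RPE-choroid level, 26.8% against the highest of 9 samples and 22.7% over all 1099 genes. The rho was 0.85 against the 1-month level and 0.68 over all 1099 genes. The 1-month RPE-choroid libraries held an estimated 40.1% to 85.3% retina RNA, so that level shares operated retina RNA with the increment. The 0.85 therefore does not describe scaling with RPE-choroid abundance alone. Members above the RPE-choroid level numbered 25 against the 2-month level, 7 against the highest sample and 47 with the retina share removed, all 3 added after the data had been seen. Of single members, ENSOCUG00000029486 ran from -0.92 to 0.086 in retina from 1 to 2 months when replicates were left out. ENSOCUG00000013533 ran from -0.54 to 1.64 in RPE-choroid at 2 months against non-operated. ENSOCUG00000024096 ran from -0.37 to 0.34 at 1 month and -0.11 to 0.53 at 2 months there, and was 0.012 at 1 month with upper-quartile normalisation.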
